A study of Mus musculus with 4 samples.

Results

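Thalamus and habenula genes were followed in RNA of the hippocampus from Rp58 hetero-KO mice, which carry 1 knocked-out copy of that gene, and from wild-type (WT) mice. Rp58, now named Zbtb18, is a zinc finger repressor of transcription. The genes were 31 symbols, listed by name as markers of the thalamus, the habenula and the neighbouring prethalamus, out of 37061 genes on the array, and they served as a check for RNA of tissue that lies next to the hippocampus. All 31 were on the array, with 67 probes between them. The groups were hetero-KO mice at 18 months, WT mice at 18 months, hetero-KO mice at 4 months and WT mice at 4 months. Each group was 1 one-colour Agilent array that held RNA mixed from 3 samples, so no group had a replicate array. The older groups carry an age of 18 months in most labels, and 12 to 18 months in their descriptions. Strain, sex and the deleted part of Rp58 are not given in the sources used here. The p-values below describe the spread between 4 pooled arrays and not between mice.

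The thalamus is the relay between the sense organs, the brainstem and the cortex. Its principal neurons release glutamate loaded by the transporter Slc17a6 and keep their identity through transcription factors such as Tcf7l2, an HMG-box protein that binds DNA with beta-catenin in Wnt signalling. The medial habenula sits above the thalamus, depends on Pou4f1 and is known for nicotinic acetylcholine receptors that hold the subunits Chrna3 and Chrnb4. The prethalamus and the boundary zones give rise to GABA neurons, and Six3, Gata3, Lhx1 and the Irx factors are grouped under them here. The thalamus and habenula lie directly beneath the dorsal hippocampus, and the neurons of these nuclei are not part of it.

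Values are levels, that is, the processed signal of a probe divided by the 75th percentile of its array. That percentile lay between 1714 and 2111 signal units, and 77.9% to 81.9% of spots were well above background. All 4 arrays came from 1 slide and 1 scan. A gene was represented by its brightest probe, and levels are compared only within a probe or as sums over the same probes. In such a sum the bright probes weigh most. Zbtb18 itself had levels of 21.4 in hetero-KO and 18.9 in WT at 18 months, and of 15.2 in hetero-KO and 17.5 in WT at 4 months. It was thus 1.13-fold higher in hetero-KO mice at the older age and 1.15-fold lower at the younger age, each between a pair of arrays. Over both ages Zbtb18 did not pass for genotype (limma adjusted p = 0.981), and whether its probe lies in the deleted part is unknown. The pools also differed in sex-linked transcripts. Eif2s3y, a gene of the Y chromosome, had levels of 1.33 in hetero-KO and 1.30 in WT at 18 months, and of 0.673 in WT at 4 months. On the hetero-KO 4-month array it did not rise well above background. Xist, which silences an X chromosome in females, was well above background at 4 months alone. Age and the sex makeup of the pools cannot be told apart, nor can genotype and sex makeup at 4 months.

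Most of the thalamus genes were lower at 18 months in both genotypes. The set was drawn up with earlier results of these arrays known, so its counts beside those of all genes are a description. Of the 31 genes, 30 were well above background on at least 2 arrays and were tested, 28 on all 4 arrays, and Chrna3 on none. In the additive model of age and genotype (limma, Benjamini-Hochberg adjustment over 28870 genes), 21 of the 30 fell at 18 months, none rose and 9 did not pass the test. Among all genes tested, 0.665% fell and 1.57% rose, which were 192 and 454 genes, or 117 and 52 with quantile normalization. Gbx2 and Gpr151 entered the test through their 4-month arrays alone, and with them left out 20 of 28 fell. The median age difference of the 30 genes was −1.90 on the log2 scale (−1.89 with Gbx2 and Gpr151 at their bounds), beside 0.037 for all genes, and 28 of the 30 were lower at 18 months, beside 41.6% of all genes. Of the 28 genes measured on all 4 arrays, 24 had both 18-month levels below both 4-month levels, beside 17.9% of all genes measured there. The 21 falls ran between 1.29-fold and 23.3-fold with adjusted p-values from limma of 0.0089 to 0.0472. Of these genes, 18 fell by at least 2-fold and 10 by at least 4-fold, and 16 of the 30 were among the 100 lowest age differences of all genes. Those 16 include Gbx2 (12th lowest) and Gpr151 (65th lowest), whose ranks use 18-month readings at background. In these bulk samples, fewer cells of a type and less RNA per cell cannot be told apart. The calls rest on 1 residual degree of freedom: 11 genes fell without the WT 4-month array and 10 without the hetero-KO 4-month array, and 4 fell when probes of a gene were averaged. With dim probes kept in, or with no variance trend in limma, 0 genes fell, where 2052 and 1722 of all genes were lower at an unadjusted p below 0.05.

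**Figure D1:**
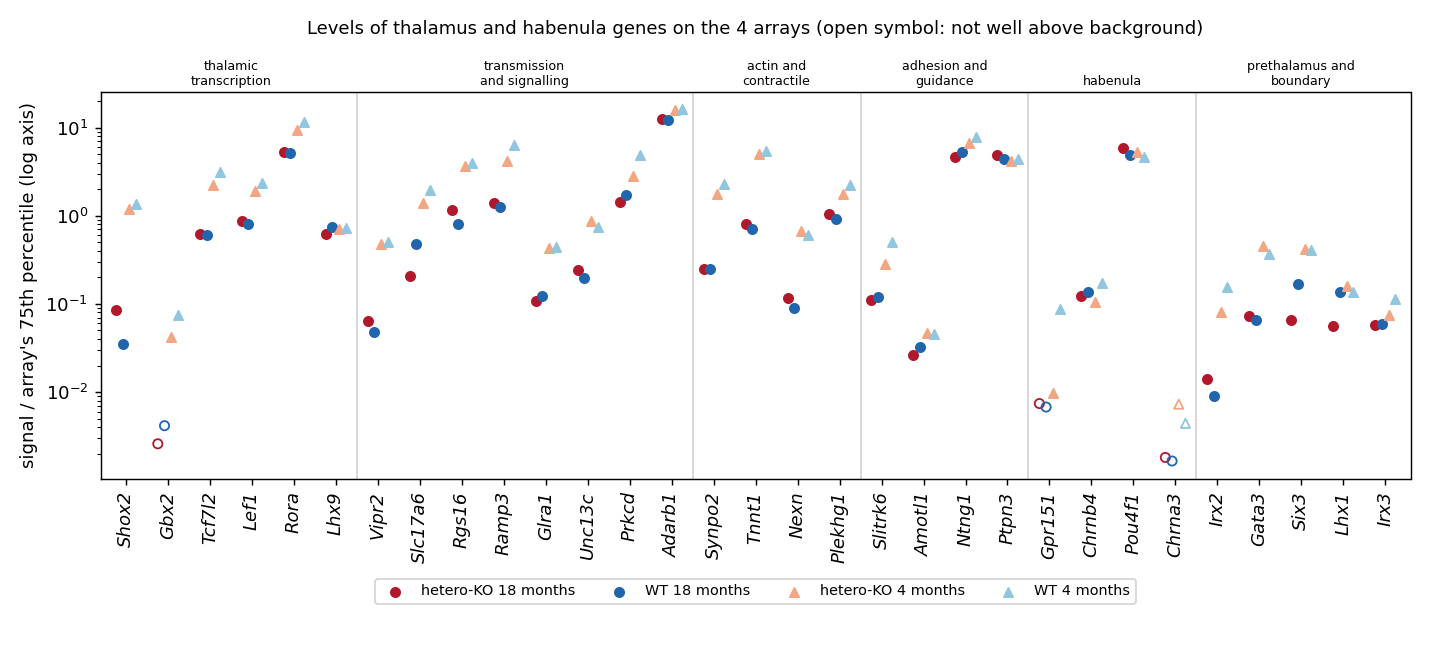
Levels of the 31 genes on the 4 arrays, as the signal over the array's 75th percentile on a log axis, grouped by role. Red and dark blue circles are hetero-KO and WT at 18 months, orange and light blue triangles are hetero-KO and WT at 4 months, and open symbols are not well above background; in 24 of the 28 genes measured on all arrays, both circles lie below both triangles.

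Among the 6 transcription factors of thalamic neurons, 5 fell at 18 months and the median difference was −1.73. Of the 5 measured on all arrays, 4 fell. Shox2, a homeobox factor of developing and mature thalamic neurons in the mouse, had levels of 0.0849 in hetero-KO and 0.0347 in WT at 18 months, and of 1.19 in hetero-KO and 1.35 in WT at 4 months. Both 4-month arrays were high and close to each other, and both 18-month arrays were low, with the WT array the lower. Shox2 fell by 4.54 ± 0.35 on the log2 scale (SE), or 23.3-fold, with a limma adjusted p of 0.0307, which was the 8th lowest age difference of the 28870 genes. Its only probe lies at chr3:66777191-66777250 on the minus strand (mm9). The opening 30 bases of the 60-base probe are shown because no second probe of the gene bears on this difference.
Shox2 probe: cacagctgcggcgatggactcgttcatagg

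Gbx2, a homeobox factor needed for the mouse thalamus to form, was well above background on the 4-month arrays alone. Its levels there were 0.0421 in hetero-KO and 0.0742 in WT, and at 18 months its probe read 0.00259 in hetero-KO and 0.00415 in WT, not well above background. Gbx2 was at least 7.04-fold lower at 18 months over both genotypes, at least 5.07-fold in hetero-KO and at least 9.76-fold in WT. It entered the test through the 4-month arrays alone, and its pass (limma adjusted p = 0.0209) uses 18-month readings at background. These bounds set the bright level over the lowest level well above background on the dim array. Tcf7l2 had levels of 0.624 in hetero-KO and 0.610 in WT at 18 months, and of 2.27 in hetero-KO and 3.15 in WT at 4 months. The older pair was nearly equal, whereas the younger pair was higher and differed between the genotypes. Tcf7l2 fell 4.33-fold, by 2.12 ± 0.13 on the log2 scale (limma adjusted p = 0.0209), and its 4 probes, all measured on every array, differed by −2.12 to −0.49.

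Lef1, the relative of Tcf7l2 in the Wnt pathway, had levels of 0.863 in hetero-KO and 0.805 in WT at 18 months, and of 1.90 in hetero-KO and 2.35 in WT at 4 months. It fell 2.54-fold (limma adjusted p = 0.0308). Rora, a nuclear receptor that matures thalamic neurons in the mouse, stood at 5.28 in hetero-KO and 5.20 in WT at 18 months, and at 9.43 in hetero-KO and 11.6 in WT at 4 months. It fell 1.99-fold (limma adjusted p = 0.0331), and its 3 probes differed by −1.27 to −0.32. In Lef1 and Rora the age groups did not overlap, and the WT 4-month array was the highest. Lhx9, a LIM-homeobox factor of the developing thalamus, did not pass. Its levels were 0.623 in hetero-KO and 0.746 in WT at 18 months, and 0.711 in hetero-KO and 0.729 in WT at 4 months, so that the ages overlapped (difference −0.079, limma adjusted p = 0.601). In the authors' deposited table, by contrast, Lhx9 was lower at 18 months by −4.45.

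All 8 genes of transmission and signalling fell at 18 months, with a median difference of −1.93. Slc17a6, the vesicular glutamate transporter of thalamic relay neurons, had levels of 0.206 in hetero-KO and 0.483 in WT at 18 months, and of 1.41 in hetero-KO and 1.96 in WT at 4 months. All 4 arrays were apart, with the lowest level in the hetero-KO array at 18 months. Slc17a6 fell 5.28-fold, by 2.40 ± 0.19 on the log2 scale (limma adjusted p = 0.0308). Vipr2, a receptor for the peptides VIP and PACAP, had levels of 0.0645 in hetero-KO and 0.0475 in WT at 18 months, and of 0.484 in hetero-KO and 0.502 in WT at 4 months. The genotypes were close within each age, and Vipr2 fell 8.90-fold (limma adjusted p = 0.0102). The gene has 4 probes, of which 2 were measured on all arrays. The chosen one differed by −3.15 and the other by −0.23.

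Glra1, a subunit of the inhibitory glycine receptor, stood at 0.109 in hetero-KO and 0.124 in WT at 18 months, and at 0.430 in hetero-KO and 0.445 in WT at 4 months (3.76-fold lower, limma adjusted p = 0.0101). Unc13c, which primes synaptic vesicles for release, stood at 0.242 in hetero-KO and 0.197 in WT at 18 months, and at 0.874 in hetero-KO and 0.748 in WT at 4 months (3.71-fold lower, limma adjusted p = 0.0089). In both genes the genotypes lay close within an age and the ages were far apart. Ramp3, a partner protein that sets the ligand of the calcitonin family of receptors, had levels of 1.40 in hetero-KO and 1.27 in WT at 18 months, and of 4.15 in hetero-KO and 6.43 in WT at 4 months. It fell 3.88-fold (limma adjusted p = 0.0382), and its 2 probes share 52 bases and are not independent readings. Rgs16, which shortens G protein signals, had levels of 1.15 in hetero-KO and 0.808 in WT at 18 months, and of 3.65 in hetero-KO and 3.98 in WT at 4 months. It fell 3.95-fold (limma adjusted p = 0.0308), and the ages did not overlap in either gene.

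Prkcd, a protein kinase C found in thalamic relay neurons, had levels of 1.44 in hetero-KO and 1.73 in WT at 18 months, and of 2.81 in hetero-KO and 4.90 in WT at 4 months. The WT array at 4 months was well above the others. Prkcd fell 2.35-fold (limma adjusted p = 0.0437), with its 3 probes between −1.23 and −1.03. Adarb1, an enzyme that edits adenosines in RNA of glutamate receptors, changed least of the genes that passed. Its levels were 12.7 in hetero-KO and 12.2 in WT at 18 months, and 15.8 in hetero-KO and 16.2 in WT at 4 months (1.29-fold lower, limma adjusted p = 0.0454), and its 4 probes did not share a direction, with differences of −0.36 to 0.10.

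All 4 genes of actin and contractile proteins fell, with the lowest median of the role groups at −2.72. Tnnt1, the troponin T of slow skeletal muscle, which mouse thalamic neurons also express, had levels of 0.800 in hetero-KO and 0.701 in WT at 18 months, and of 5.05 in hetero-KO and 5.47 in WT at 4 months. It fell 7.01-fold, by 2.81 ± 0.086 on the log2 scale (limma adjusted p = 0.0089), and its second probe differed by −3.05. Nexn, an actin-binding protein of muscle, had levels of 0.116 in hetero-KO and 0.0892 in WT at 18 months, and of 0.665 in hetero-KO and 0.599 in WT at 4 months. It fell 6.21-fold (limma adjusted p = 0.0089), with both probes lower. Plekhg1, a guanine nucleotide exchange factor, had levels of 1.05 in hetero-KO and 0.920 in WT at 18 months, and of 1.79 in hetero-KO and 2.24 in WT at 4 months. The ages were apart in all 3 genes, and Plekhg1 fell 2.03-fold (limma adjusted p = 0.0472). Smooth muscle and pericytes of vessels also hold contractile proteins. Of 12 of their markers none passed the limma test for age, 10 were lower at 18 months, and the median difference was −0.18, with summed levels of 20.2 in hetero-KO and 17.9 in WT at 18 months, and of 19.4 in hetero-KO and 21.6 in WT at 4 months.

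Synpo2, an actin-bundling protein, depended on the probe. Its brightest probe had levels of 0.251 in hetero-KO and 0.247 in WT at 18 months, and of 1.76 in hetero-KO and 2.29 in WT at 4 months. It fell 8.07-fold, by 3.01 ± 0.11 on the log2 scale (limma adjusted p = 0.0089). Another probe read 0.229 in hetero-KO and 0.218 in WT at 18 months, and 0.135 in hetero-KO and 0.179 in WT at 4 months, which is the opposite direction (0.53). The remaining probe differed by −1.05 and was not well above background in WT at 18 months. All of them lie on the minus strand of chromosome 3 in mm9, the chosen one at chr3:122813970-122814029, the opposed one at chr3:122779459-122779518 and the dim one at chr3:122815498-122815557, so the opposed probe lies at a distance from the other pair. The opening 30 bases of each show that they read different stretches of RNA.
Synpo2 chosen probe: cgatgtctagagactttgtgtaaagacttt
Synpo2 opposed probe: ctctgtcctcaaaggctgtatgtgaaagat
Synpo2 dim probe: cacaaatgcgcaggcttcttctgtgtactc

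Among 4 genes of adhesion and guidance, 2 fell and the median difference was −0.60. Slitrk6, a transmembrane protein of neurite growth, had levels of 0.110 in hetero-KO and 0.120 in WT at 18 months, and of 0.285 in hetero-KO and 0.505 in WT at 4 months. It fell 3.31-fold (limma adjusted p = 0.0421), with the WT array at 4 months the highest. Ntng1, the presynaptic adhesion protein netrin-G1 of thalamic axons, had levels of 4.65 in hetero-KO and 5.33 in WT at 18 months, and of 6.76 in hetero-KO and 7.85 in WT at 4 months. The ages were apart by less than in Slitrk6. Ntng1 fell 1.46-fold (limma adjusted p = 0.0307), and all 5 of its probes were lower, by −0.95 to −0.55. Amotl1, a protein of cell junctions, had levels of 0.0266 in hetero-KO and 0.0327 in WT at 18 months, and of 0.0470 in hetero-KO and 0.0451 in WT at 4 months, a difference of −0.64 that did not pass (limma adjusted p = 0.117). Ptpn3, a tyrosine phosphatase, had levels of 4.93 in hetero-KO and 4.42 in WT at 18 months, and of 4.20 in hetero-KO and 4.37 in WT at 4 months (difference 0.12, limma adjusted p = 0.337).

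**Figure D2:**
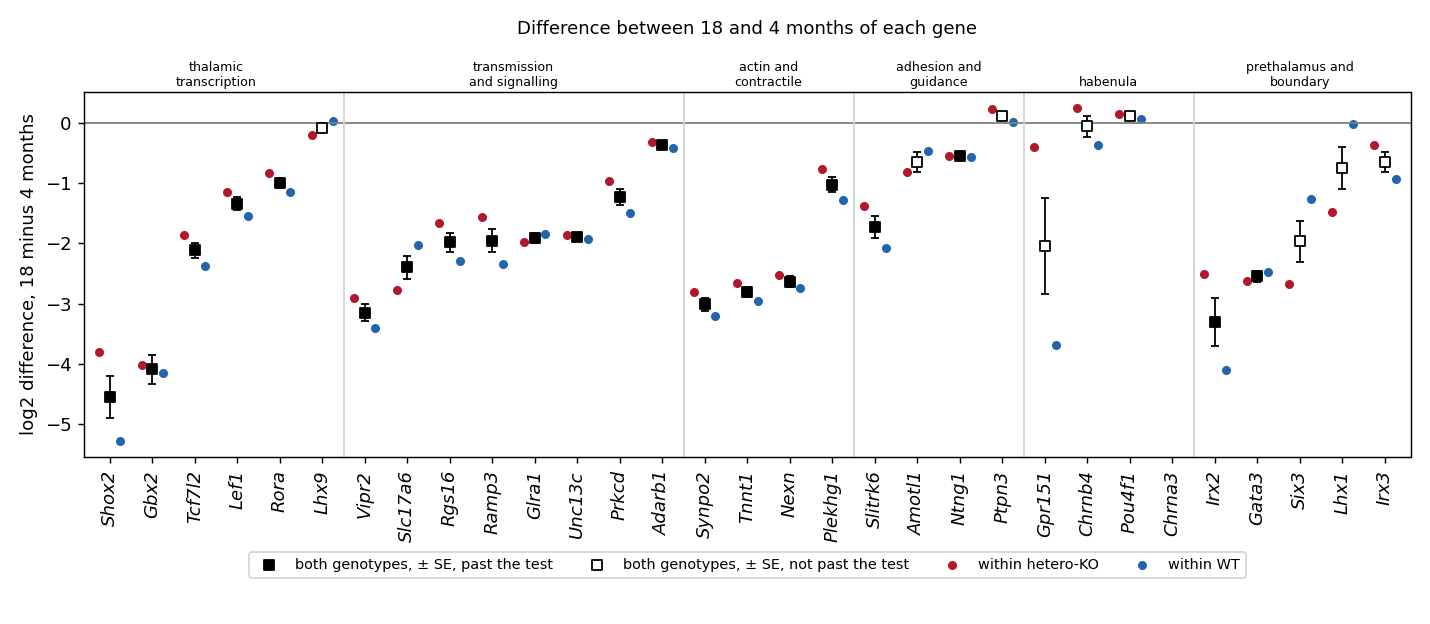
Log2 difference between 18 and 4 months for each gene, grouped by role. Squares are the fitted difference over both genotypes with its SE (filled where limma passed), and red and blue dots are the differences within hetero-KO and within WT, left out where neither array was well above background; Shox2 is lowest at −4.54, and the differences of Gbx2 and Gpr151 run against 18-month readings not well above background.

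None of the 3 habenula genes tested fell or rose with age (limma), and their median age difference was −0.058, but their probes and arrays gave unlike readings. Chrnb4 had levels of 0.124 in hetero-KO and 0.135 in WT at 18 months, and of 0.104 in hetero-KO and 0.174 in WT at 4 months, with overlapping ages (difference −0.058, limma adjusted p = 0.870), whereas the authors' deposited table has it lower at 18 months (−1.79). Both probes of Chrna3 were not well above background on any array. Gpr151, an orphan receptor of habenular neurons, was well above background on the 4-month arrays alone. Its levels there were 0.00981 in hetero-KO and 0.0873 in WT, and its 18-month readings were 0.00741 in hetero-KO and 0.00676 in WT. The WT array at 4 months thus stood alone: Gpr151 was 8.89-fold lower in hetero-KO than in WT at 4 months, and at least 11.48-fold lower at 18 than at 4 months in WT. Between the ages in hetero-KO the bound was at least 1.18-fold. Over both genotypes its difference did not pass the test (−2.05 ± 0.79, limma adjusted p = 0.216).

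Pou4f1, the POU-domain factor of the habenula, was read in contrary ways by its probes. The brightest probe, which stands for the gene in the counts, had levels of 5.96 in hetero-KO and 4.94 in WT at 18 months, and of 5.36 in hetero-KO and 4.69 in WT at 4 months (difference 0.11, limma adjusted p = 0.235). The second probe read 0.00411 in hetero-KO and 0.00758 in WT at 18 months, and 0.00695 in hetero-KO and 0.0367 in WT at 4 months. The remaining probe read 0.00176 in hetero-KO and 0.00161 in WT at 18 months, and 0.00269 in hetero-KO and 0.0187 in WT at 4 months. Both were well above background on the WT 4-month array only, as Gpr151 was highest there. Between the genotypes at 4 months, the hetero-KO reading of these probes was lower by at least 5.28-fold on the second and at least 2.79-fold on the remaining one. Between the ages in WT, the 18-month reading was lower by at least 4.82-fold on the second and at least 2.47-fold on the remaining one. The brightest probe lies at chr14:104863312-104863371, the second at chr14:104864405-104864464 and the remaining one at chr14:104861950-104862009, all on the minus strand in mm9. The opening 30 bases show a GA repeat of 14 bases, in capitals, in the brightest probe and none of that length in the others. Whether that repeat adds to its signal was not tested.
Pou4f1 brightest probe: gagaaagaaaGAGAGAGAGAGAGAaatgtg
Pou4f1 second probe: tgctttaggaacttaactcctgggagcagt
Pou4f1 remaining probe: tagttgggactatatcctctgaagtcatcc

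Of 15 further medial habenula genes, 2 fell, none rose and the median difference was −0.34. The genes that fell were the choline transporter Slc5a7 (−2.42, limma adjusted p = 0.0237) and the vesicular acetylcholine transporter Slc18a3 (−1.58, limma adjusted p = 0.0331). Both serve any neuron that releases acetylcholine. Slc5a7 had levels of 0.0236 in hetero-KO and 0.0279 in WT at 18 months, and of 0.150 in hetero-KO and 0.126 in WT at 4 months, so the WT array at 4 months did not stand alone. The neurokinin B gene Tac2, the G protein subunit gene Gng8 and the channel subunit gene Lrrc55, which were picked after their values were seen, were highest in WT at 4 months. The list as a whole did not share this: at 4 months 5 of its 15 genes were lower and 10 higher in hetero-KO, 2 by at least 2-fold in each direction, with a median of 0.24. Tac2 had levels of 0.856 in hetero-KO and 0.551 in WT at 18 months, and of 0.894 in hetero-KO and 2.19 in WT at 4 months. Gng8 had levels of 0.228 in hetero-KO and 0.267 in WT at 18 months, and of 0.253 in hetero-KO and 0.662 in WT at 4 months. Lrrc55 had levels of 0.244 in hetero-KO and 0.258 in WT at 18 months, and of 0.280 in hetero-KO and 0.495 in WT at 4 months. On these probes the WT 4-month array was the highest. A second Lrrc55 probe read 0.0999 in hetero-KO and 0.134 in WT at 4 months, and a dim one had the opposite order there, at least 2.75-fold higher in hetero-KO.

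**Figure D3:**
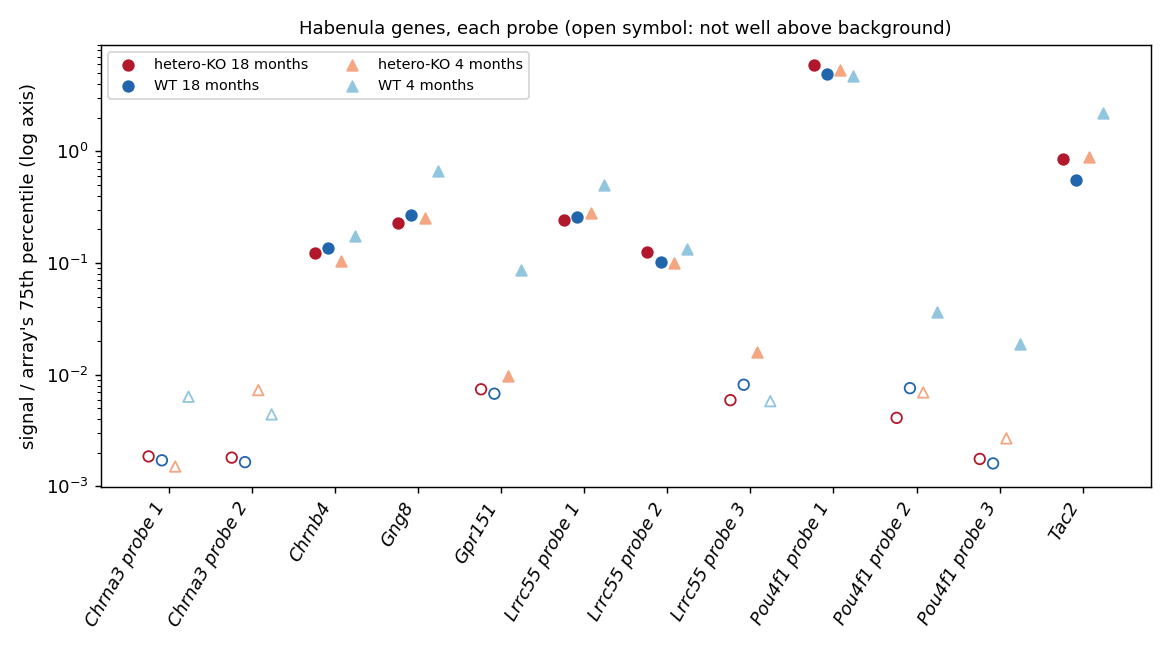
Levels of habenula genes by probe on the 4 arrays, as the signal over the array's 75th percentile on a log axis, with open symbols not well above background. Gpr151, Tac2, Gng8 and the dim probes of Pou4f1 are highest on the WT 4-month array (light blue triangles), whereas the brightest Pou4f1 probe lies between 4.69 and 5.96 on all arrays. Tac2, Gng8 and Lrrc55 were picked after their values were seen. Of the 15 further medial habenula genes, 10 were higher in hetero-KO at 4 months, and none of those is plotted.

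Of the 5 transcription factors grouped here under the prethalamus and its boundaries, 2 fell and the median difference was −1.97. Gata3, a zinc finger factor of GABA neurons, had levels of 0.0737 in hetero-KO and 0.0660 in WT at 18 months, and of 0.455 in hetero-KO and 0.366 in WT at 4 months. It fell 5.85-fold, by 2.55 ± 0.091 on the log2 scale (limma adjusted p = 0.0089), with the genotypes close at both ages. Irx2, an Iroquois homeobox factor, had levels of 0.0142 in hetero-KO and 0.00894 in WT at 18 months, and of 0.0803 in hetero-KO and 0.154 in WT at 4 months. It fell 9.89-fold (limma adjusted p = 0.0459), and the order of the genotypes was opposite at the 2 ages. Its 18-month readings were near the lowest level well above background, 0.00830 in hetero-KO and 0.00760 in WT at 18 months. Irx3, its relative, had levels of 0.0577 in hetero-KO and 0.0598 in WT at 18 months, and of 0.0741 in hetero-KO and 0.114 in WT at 4 months (difference −0.65, limma adjusted p = 0.120).

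Six3 and Lhx1 were lowest in hetero-KO at 18 months. Six3, a homeobox factor of the anterior forebrain, had levels of 0.0656 in hetero-KO and 0.170 in WT at 18 months, and of 0.420 in hetero-KO and 0.406 in WT at 4 months. Its age difference of −1.97 did not pass (limma adjusted p = 0.0613). Lhx1, a LIM-homeobox factor, had levels of 0.0569 in hetero-KO and 0.135 in WT at 18 months, and of 0.159 in hetero-KO and 0.137 in WT at 4 months (difference −0.75, limma adjusted p = 0.283). Thus 3 of its 4 arrays were close and the hetero-KO array at 18 months was low. A second Lhx1 probe had the same order, with 0.0236 in hetero-KO and 0.0422 in WT at 18 months, and 0.0563 in hetero-KO and 0.0446 in WT at 4 months. Among 14 further genes of prethalamic and midbrain GABA neurons, 2 fell and none rose, with a median of −0.22. Those were Irx1 (−1.74, limma adjusted p = 0.0222) and Tal1 (−1.11, limma adjusted p = 0.0331), while Lhx5 differed by −1.73 and did not pass (limma adjusted p = 0.0977).

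Like the other comparison lists, that of further thalamus genes was chosen with earlier results of these data known. Of its 14 genes, 5 fell and none rose, beside 0.665% and 1.57% of all genes tested, and the median difference was −0.71. Of the 13 measured on all arrays, 4 fell. The tight-junction scaffold gene Patj had levels of 0.467 in hetero-KO and 0.566 in WT at 18 months, and of 1.60 in hetero-KO and 1.96 in WT at 4 months (−1.78, limma adjusted p = 0.0089). The phospholipase gene Plcb4 had levels of 0.945 in hetero-KO and 1.23 in WT at 18 months, and of 1.93 in hetero-KO and 2.31 in WT at 4 months (−0.97, limma adjusted p = 0.0209). Both were lower on each 18-month array than on each 4-month array. The other falls were those of the forkhead factor Foxp2, which was measured at 4 months alone and so had to differ to be tested, the T-type calcium channel gene Cacna1g (−0.92, limma adjusted p = 0.0317) and the factor Zfhx3 (−0.78, limma adjusted p = 0.0351). Of 10 target genes of Wnt signalling, the pathway of Tcf7l2 and Lef1, 1 fell and none rose, with a median of −0.037. It was the receptor gene Lgr5 (−1.23, limma adjusted p = 0.0308).

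Markers of other tissues near the hippocampus were counted beside these. All 16 markers of hippocampal principal cells were well above background on every array, and 2 rose and 1 fell, with a median of 0.20. The lactase gene Lct rose (0.60) and the calmodulin regulator Pcp4 fell (−0.68). Of 15 striatum markers, none passed the limma test, but all were lower at 18 months over both genotypes, with a median of −0.69. Their summed level was 26.3 in hetero-KO and 24.4 in WT at 18 months, and 55.0 in hetero-KO and 23.7 in WT at 4 months, so that the hetero-KO 4-month array alone was high. The gene of the enzyme Ido1 differed by −1.91 without passing. The 28 members measured on all arrays had summed levels of 43.1 in hetero-KO and 41.6 in WT at 18 months, and of 72.4 in hetero-KO and 83.7 in WT at 4 months, with the WT 4-month array the highest. Bright probes weigh most in these sums, such as that of Adarb1 with levels of 12.2 to 16.2. What part the amount of neighbouring tissue in the pools had in the age differences was not tested.

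The remaining lists held few calls. Of 14 neocortex markers 1 fell (Cux2, −0.55), while Tshz2 differed by −0.49 without passing, and the median was −0.094. Of 11 hypothalamus markers, the vasopressin gene Avp rose (1.81) and the gene of thyrotropin-releasing hormone, Trh, fell (−2.55), with a median of 0.43. Of 14 choroid plexus markers, the transthyretin gene Ttr rose (0.31) and Prlr differed by −0.38 without passing, with a median of 0.034. Of 12 meningeal fibroblast markers, the collagen gene Col3a1 fell (−1.41) and Col1a1 differed by −0.80 without passing, with a median of −0.10. None of the 12 myelin genes passed (median 0.076). Among 12 pan-neuronal genes Syt1 (0.30) and Uchl1 (0.33) rose and none fell, with a median of 0.16. In these lists the limma adjusted p-values of the genes that passed lay just below the threshold of 0.05.

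**Figure D4:**
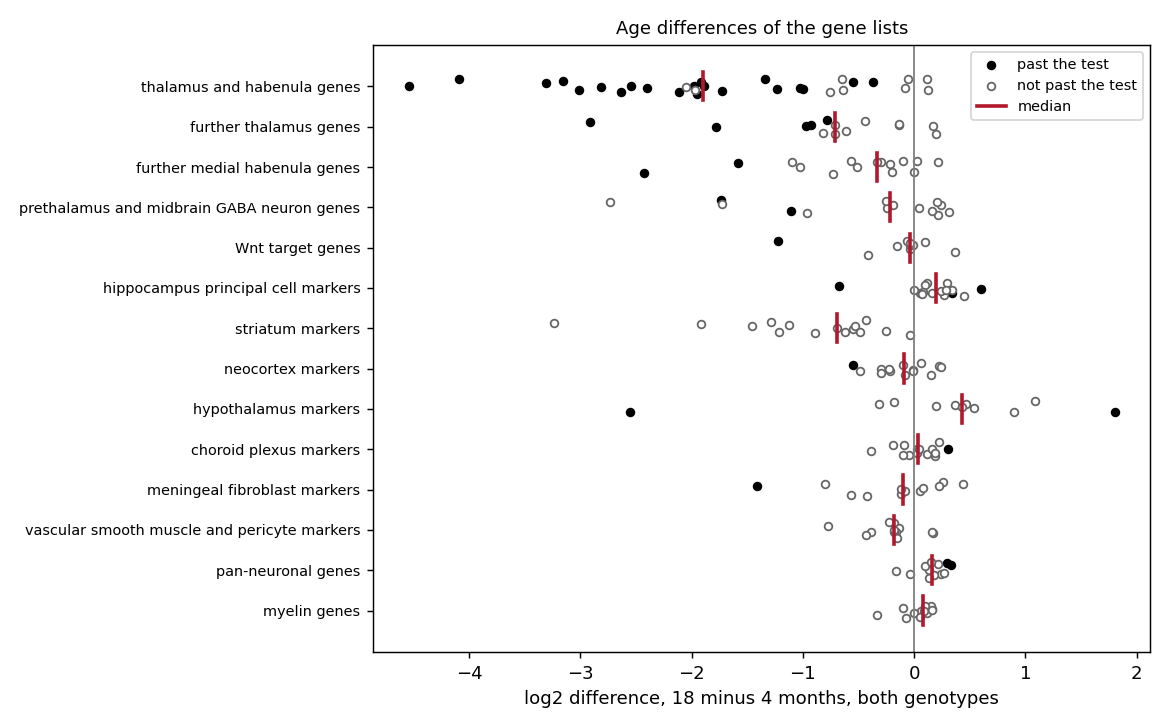
Fitted age differences (18 minus 4 months, log2, both genotypes) of the thalamus and habenula genes in the top row and of 13 comparison lists below it. Each dot is a gene, black where limma passed, and red bars are medians; the median of the top row is −1.90, and those of the other rows lie between −0.71 and 0.43.

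Within each genotype the age difference was read from a pair of arrays, with no test. In hetero-KO mice, 25 of 28 genes were lower at 18 months, beside 40.5% of all genes, 17 by at least 2-fold and none higher by that much, with a median of −1.52. Among all genes, 1.09% were at least 2-fold lower and 1.11% at least 2-fold higher in that pair, with a median of 0.045. In WT mice, 25 of 28 were lower, beside 41.4% of all genes, 19 by at least 2-fold and none higher by that much, with a median of −1.70. Among all genes, 0.823% were at least 2-fold lower and 0.773% at least 2-fold higher there. Of the 21 genes that fell over both genotypes, 18 had the larger difference in WT (Gbx2 by readings not well above background at 18 months) and 3 in hetero-KO, namely Slc17a6, Glra1 and Gata3. The same split was not counted among all genes, so it describes these 21 genes alone. Shox2 differed by −3.81 in hetero-KO and by −5.28 in WT, Slc17a6 by −2.78 in hetero-KO and by −2.02 in WT. Whether the age difference depended on genotype could not be tested with 1 array per group.

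No gene of the set passed the test for genotype. Over both ages, 20 of 30 were lower in hetero-KO than in WT, beside 55.0% of all genes, with a median of −0.14 and a lowest limma adjusted p of 0.269. Among all 28870 genes the limma test called 0.0104% higher and 0.0% lower in hetero-KO, and at an unadjusted p below 0.05 it had 1492 higher and 1817 lower. At 18 months, 11 of 28 genes were lower and 17 higher in hetero-KO, beside 52.0% of all genes lower, with a median of 0.043. At least 2-fold lower there were Six3 (−1.37), Lhx1 (−1.24) and Slc17a6 (−1.23), and at least 2-fold higher was Shox2 (1.29), beside 0.616% lower and 0.529% higher among all genes. At 4 months, 23 of 30 genes were lower and 7 higher in hetero-KO, beside 55.5% of all genes lower, with a median of −0.20. Only Gpr151 (−3.15) was at least 2-fold lower and none was at least 2-fold higher, beside 0.635% and 0.692% of all genes. Irx2 (−0.94), Slitrk6 (−0.83), Gbx2 (−0.82) and Prkcd (−0.80) came next. At 4 months, genotype cannot be told apart from the sex makeup of the pools.

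**Figure D5:**
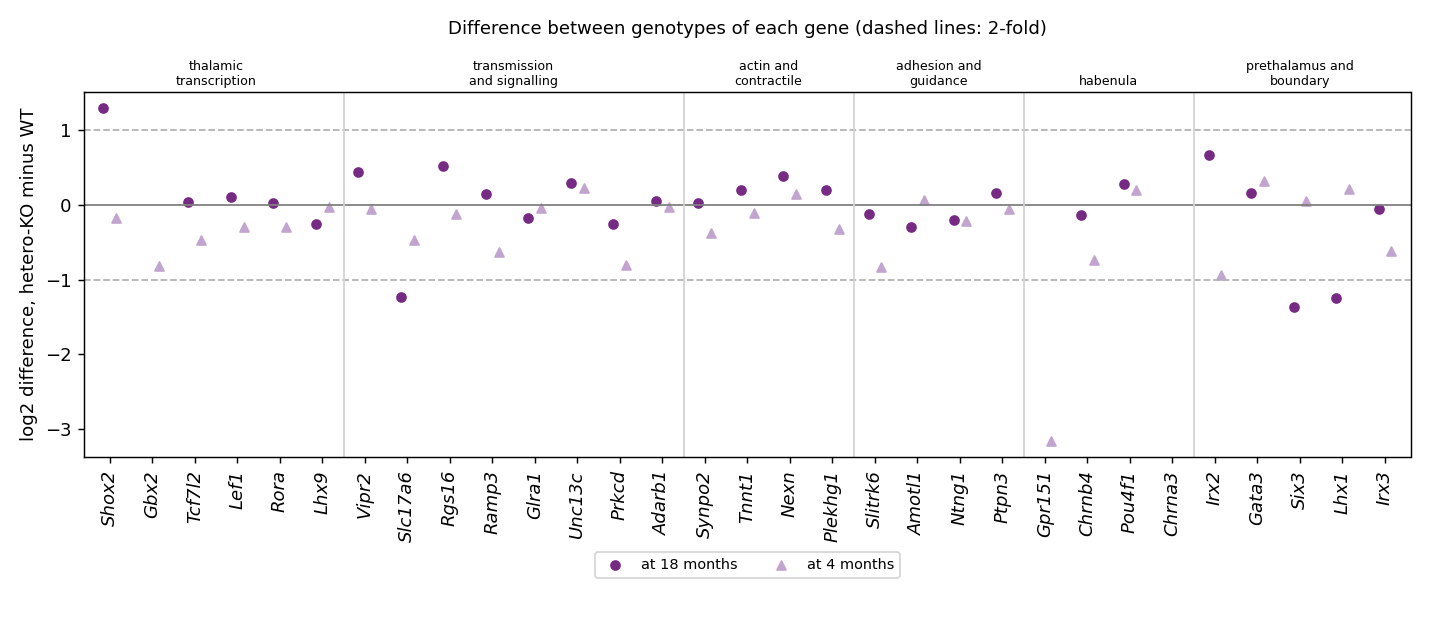
Log2 difference of hetero-KO from WT for each gene at 18 months (dark circles) and at 4 months (light triangles), left out where neither array was well above background, with dashed lines at 2-fold. At 18 months Shox2 lies above the upper line and Slc17a6, Six3 and Lhx1 below the lower one, and at 4 months only Gpr151 lies below it.

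The 250 bases before the transcript starts of the genes were searched for the core motif of TCF and LEF factors, CTTTGA or its reverse complement TCAAAG, since Tcf7l2 and Lef1 are in the set. Sequences were RefSeq promoters of build GRCm38.p6, which held 34 starts of 28 of the genes. The motif was in 3 of the 34 starts, or 8.82%, beside 13.8% of 32851 starts of all genes. The motif ACATCTG (reverse complement CAGATGT), known as a core of Zbtb18 binding, was in none of the 34 and in 3.71% of all starts. Neither motif overlaps the other, and both strands were read. A match or its absence describes these letters in this window alone. The 3 starts with a TCF and LEF core belong to genes that fell at 18 months, as did 21 of the 30 genes tested. The other starts of Lef1 and Prkcd held no match. These 3 starts are printed on the gene's strand, with the core in capitals: Shox2 at chr3:66981772-66982021 (minus strand), Lef1 at chr3:131156044-131156293 (plus strand) and Prkcd at chr14:30626209-30626458 (minus strand).
Shox2 promoter: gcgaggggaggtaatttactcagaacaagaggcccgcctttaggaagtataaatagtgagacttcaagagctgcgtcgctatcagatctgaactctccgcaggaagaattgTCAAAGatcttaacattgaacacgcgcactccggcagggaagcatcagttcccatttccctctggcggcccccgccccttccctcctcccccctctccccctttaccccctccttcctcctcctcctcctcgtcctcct
Lef1 promoter: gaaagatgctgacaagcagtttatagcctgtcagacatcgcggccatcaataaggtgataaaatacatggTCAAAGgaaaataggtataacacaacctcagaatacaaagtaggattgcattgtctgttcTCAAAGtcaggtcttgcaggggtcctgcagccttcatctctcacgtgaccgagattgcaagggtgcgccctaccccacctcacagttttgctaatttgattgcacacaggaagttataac
Prkcd promoter: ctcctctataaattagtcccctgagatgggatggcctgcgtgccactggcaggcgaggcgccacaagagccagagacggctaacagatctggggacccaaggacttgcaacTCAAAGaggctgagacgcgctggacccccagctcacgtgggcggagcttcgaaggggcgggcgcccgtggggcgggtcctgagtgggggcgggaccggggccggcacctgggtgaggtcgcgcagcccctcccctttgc

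The 18-month and 4-month columns of the authors' deposited table were compared as well. Its 4-month columns equal the scanner values, while its 18-month columns come from none of the 4 scanner files. Its age differences thus set these 4-month arrays against arrays of unknown origin. In the authors' deposited table, 19 of the 21 genes that fell were lower at 18 months, 13 of them by at least 2-fold. The shares of all genes lower there, by any amount or by 2-fold, were not counted, and the median of all genes was −0.051. In limma on that table, 5283 of all 28870 genes fell and 4594 rose, beside 192 and 454 from the scanner files. Calls there were thus common among all genes. In the authors' deposited table Shox2 differed by −4.68, Gata3 by −4.25 and Gbx2 by −3.90. In that same deposited table of the authors, Slc17a6 differed by −0.36, Ramp3 by −0.39 and Nexn by −0.30, and Rora (0.063) and Unc13c (0.13) were not lower. Of the genes that did not pass in the scanner files, the authors' deposited table had Lhx9 (−4.45), Lhx1 (−1.99), Chrnb4 (−1.79) and Irx3 (−1.59) lower at 18 months and Pou4f1 higher (0.38), all past the limma test there.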

How the data were processed

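RNA from hippocampus was labelled with Cy3 and read on 4 Agilent arrays. The scanner files, as deposited, give each spot a linear intensity. Agilent Feature Extraction 11.5.1.1, named in the file headers, removed spatial trends, subtracted background and gave coordinates in mm9. The authors' deposited table holds a linear ratio of the signal to the 75th percentile of an array. Its 4-month columns equal the scanner values within 1% and its 18-month columns match no scanner file (highest correlation of log2 values 0.985), so its direction is known but its arrays are not. The medians of its columns were 0.0987 for hetero-KO and 0.0998 for WT at 18 months, and 0.103 for hetero-KO and 0.107 for WT at 4 months. It served only as an alternative.

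From the scanner files, log2 of the processed signal was taken and scaled to the 75th percentile of each array (control and outlier spots left out), and spots of a probe were averaged. A probe was taken as measured where 50% or more of its spots passed the scanner software's background test. Each gene took its probe with the highest mean level. Of 56605 probes, 32994 matched a RefSeq accession and 1535 symbols were updated. Age and genotype were tested in an additive model in limma 3.58.1 (R 4.3.3) with eBayes and a variance trend, on genes measured on at least 2 arrays, at a Benjamini-Hochberg adjusted p of 0.05, and the script was tested on simulated data. Pairs of arrays have no test. The number of arrays limits the precision. Whether the 3 pooled samples came from separate mice is not stated.

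The member genes and the comparison lists were chosen with earlier results of these data known. Every member was named, and of each comparison list the 2 genes with the largest age difference on all arrays, with every passing gene of the thalamus, habenula and prethalamus lists; 1 gene that this rule names is not reported here. Alternatives were normexp background correction, quantile normalization, the mean of probes, other filters, no variance trend, 1 factor alone and the deposited table. Fits without each array were added after the data were seen.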

Additional observations from a re-analysis of the deposited data

Results flagged for a closer look

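In Irx2 the difference between genotypes was at least 1.5-fold at both ages, with opposite signs. The median of the set also changed sign. Other members, among them Shox2 (1.29 at 18 months and −0.18 at 4 months), changed sign with a smaller difference at 1 age or both. For Irx2, hetero-KO minus WT was 0.66 at 18 months and −0.94 at 4 months (log2), with 18-month readings near the lowest level well above background. The median of the members was 0.043 at 18 months and −0.20 at 4 months. With 1 array per group these differences were not tested, and at 4 months genotype and sex makeup cannot be told apart.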

How the results depend on the processing

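No paired analysis was possible because each group holds 1 array, whose number was given in order of accession and pairs nothing. The count of members that fell with age, 21 of 30, was 15 to 22 with normexp, quantile normalization, genes measured on all 4 arrays, age alone and the authors' deposited table, 4 with the mean of probes, and 0 without the filter on dim probes and without the variance trend. It was 10 to 18 without 1 array. At an unadjusted p below 0.05, limma had 5032 genes higher and 2052 lower without the filter, and 2773 higher and 1722 lower without the trend. The only rise among members was 1 in the authors' deposited table. No member passed for genotype under any setting run. Of all genes, 192 fell and 454 rose with age. These were 313 and 1181 with normexp, 117 and 52 with quantile normalization, 11 and 4 with the mean of probes, 0 and 0 without the filter or the trend, 71 and 60 with age alone, and 5283 and 4594 in the authors' deposited table. Without 1 array they were 20 to 136 and 8 to 194. For genotype, 0 fell and 3 rose. These were 5 and 9 with normexp, 2 and 8 with all 4 arrays, 0 and 1 with the mean of probes or genotype alone, 0 and 0 without the filter or trend, 7 and 1 in the authors' deposited table, and 0 to 2 and 0 to 4 without 1 array. The median in hetero-KO between ages, −1.52, was −1.10 with normexp, −1.06 with the mean of probes and −1.18 in the authors' deposited table. In WT it was −1.70, against −1.50, −1.60 and −1.40 there and −1.85 without the filter. Hetero-KO against WT at 18 months was 0.043, and −0.30 in the authors' deposited table, and at 4 months it was −0.20, and −0.34 with the mean of probes. The genes that turned in the authors' deposited table were Rora (0.063, limma adjusted p = 0.280), Unc13c (0.13, adjusted p = 0.512), Ptpn3 (−0.46, adjusted p = 0.0023) and Amotl1 (0.034, adjusted p = 0.951). Causes were not tested, except that fewer arrays or more dim probes enter by construction. Dim probes and 4 arrays limit all of it.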
